A study of Homo sapiens with 6 samples.

Results

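The TNF superfamily ligands of lymphocytes were followed in BL-2 cells, an established Burkitt lymphoma line, after exposure to lipopolysaccharide (LPS) or without it. The 10 genes were TNFSF4, TNF, LTA, LTB, CD70, TNFSF8, TNFSF9, TNFSF10, TNFSF13 and TNFSF13B. A probe set, the group of oligonucleotides that reads a transcript on an Affymetrix array, was counted as a member when the platform annotation gave it exactly 1 gene symbol and that symbol was a member's. This gave 16 of the 54613 probe sets tested, with all 10 genes represented. A further 4 probe sets carried several symbols, TNFSF13 among them, and were not used. The samples were 3 of BL-2 cells treated with LPS for 6 h and 3 of untreated BL-2 cells, with an array for each sample. The labels do not say whether the samples were grown separately, so p-values reflect only how far these samples differ, which may be technical variation.

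Ligands of the TNF superfamily are mostly membrane proteins that assemble into trimers and signal through receptors of the TNF receptor superfamily on a neighbouring cell, or after release by a protease. In lymphoid tissue some of them costimulate T cells, some build lymphoid structures, some induce cell death and some keep B cells alive. In responsive cells LPS acts through TLR4 and NF-kB, and TNF is the classical product of LPS-stimulated macrophages.

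The values were on a scale taken to be log2, and a difference is LPS minus control. Levels of different probe sets cannot be ranked against each other as amounts of RNA, so brightness is given as the percentage of tested probe sets with a lower mean. The arrays formed 2 sets by their mean level of added bacterial and phage control probe sets, set A with LPS 1, LPS 2 and control 1, and set B with LPS 3, control 2 and control 3. The B cell identity of the line was visible in the B cell gene MS4A1, at 12.99 ± 0.11 in LPS and 13.05 ± 0.12 in control cells (SD, n = 3 each). Of the 5 B cell markers listed, 4 had a probe set, and 0 of these passed the test. CD79A, a signalling chain of the B cell receptor, averaged 10.35 ± 0.077 in LPS and 10.73 ± 0.051 in control cells (SD, n = 3 each). The CD79A groups did not overlap, with a difference of -0.38 (limma adjusted p = 0.133, and 0.0103 with array set as a block in the model). The 4 B cell markers did not share a sign, with 3 below 0 and 1 above. The marker above 0 was PAX5, whose groups overlapped, with a difference of 0.31 (limma adjusted p = 0.648, and 0.577 with the block). The list of markers of germinal centre cells and Burkitt lymphoma was chosen with earlier results of these data known. A sign shared by its genes is therefore not independent evidence. Its 5 genes all had differences below 0, from -0.56 to -0.03 (median -0.324, against 0.00161 over all genes), and 1 passed. This was MYBL1, a MYB family transcription factor, which averaged 7.92 ± 0.15 in LPS and 8.47 ± 0.15 in control cells (SD, n = 3 each), a difference of -0.56 (limma adjusted p = 0.0288). The dimmer MYBL1 probe sets gave -0.03 and -0.05. With array set as a block BCL6 (-0.31 without the block, limma adjusted p = 0.0467 with it) and CD38 (-0.33 and 0.00954) passed beside MYBL1. In that fit 400 of 19775 genes passed, against 36 higher and 41 lower without the block. The other BCL6 probe sets had limma adjusted p of 0.0537 and 0.329 with the block. Summed on the linear scale, the germinal centre and Burkitt list ran from 7558 to 8554 in LPS and from 8611 to 9638 in control arrays. Such a sum mostly reflects the brightest genes of a list. The brightest here was TCL1A, at a mean of 12.06 in LPS and 12.09 in control cells, a difference of -0.03 (limma adjusted p = 0.975). BCL6 followed, at 10.96 and 11.27. The part of this list in the ligand results was not tested. By the same sum, the 6 measured monocyte markers of 6 listed ran from 444.4 to 460.9 in LPS and from 453.4 to 471.6 in control arrays, and the 6 measured T and NK cell markers of 7 listed from 476.5 to 486.1 in LPS and from 456.5 to 494.1 in control arrays. In each of these lists 1 of the 6 measured genes was brighter than the median of all tested probe sets, so the sums are mostly of dim values. None of these monocyte, T and NK cell genes passed the test.

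Among the ligands, TNFSF4 was higher after LPS, and the other 9 genes did not pass the test. Of the 16 probe sets 1 passed limma's test at an adjusted p under 0.05, where 0.264% of all tested probe sets did. The median difference was 0.0135 over the 16 probe sets and 0.00292 over all probe sets. The 95% intervals of the 15 probe sets that did not pass lay between -0.393 and 0.423, inside a 1.5-fold change in either direction (0.585 on the log2 scale). This bound holds for the array values. Of the 16 probe sets 6 were dimmer than the median of all tested probe sets, where a change in RNA may be compressed. The 3 LPS and the 3 control values did not overlap in 5 of the 16 probe sets (31.2%), against 13.4% of all tested probe sets. In 4 of these 5 the gap between the groups was under 0.005, so the separation was wide only in TNFSF4.

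**Figure D1:**
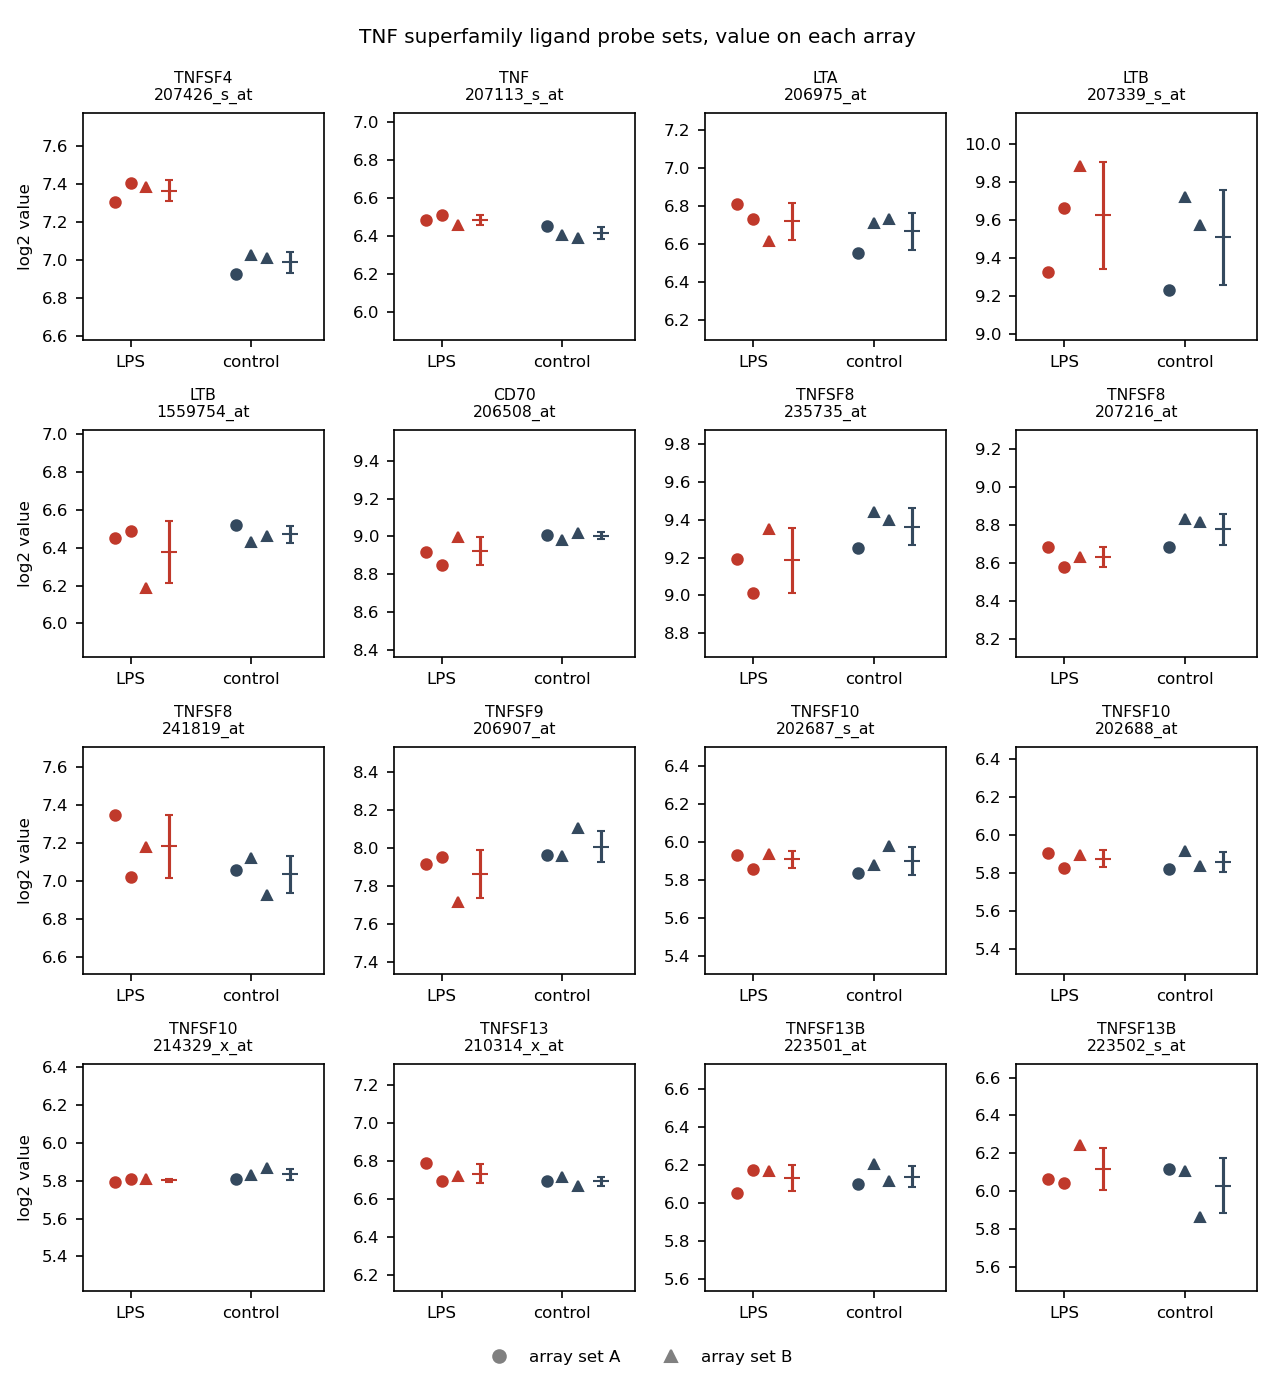
Value of each of the 16 ligand probe sets on each array (y axis, log2, the same span of 1.2 in every panel), with LPS arrays on the left and control arrays on the right. Circles are arrays of set A and triangles arrays of set B, and the bar is the mean ± SD of 3 arrays. TNFSF4 is the panel with a clear gap between the groups, and LTB by probe set 207339_s_at has the widest spread within them.

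The first group of ligands costimulates T cells. TNFSF4, known as OX40L, is displayed by activated antigen-presenting cells, B cells among them, and engages OX40 on T cells. Its probe set 207426_s_at read 7.31, 7.41 and 7.39 on the LPS arrays, against 6.93, 7.03 and 7.01 on the control arrays. Every LPS value was above every control value, with a gap of 0.28 between the lowest LPS and the highest control value. The mean was 7.37 ± 0.053 in LPS and 6.99 ± 0.054 in control cells (SD, n = 3 each). The rise of TNFSF4 was 0.38 in log2 units, or 1.30-fold (SE 0.065, 95% interval 0.24 to 0.52, limma adjusted p = 0.0272). From bulk RNA, more cells with the transcript and more transcript per cell cannot be told apart.

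The rise of TNFSF4 was modest in size among the 36 genes that were higher after LPS, where it ranked 35 by difference. Those genes were picked by the test, which favours large differences. Among all 19775 genes TNFSF4 ranked 98 by difference, counted from the most positive, and 48 by p. Its brightness was above that of 71.7% of probe sets. Within set A the difference was 0.43, and within set B 0.37. With array set as a block it was 0.40 (limma adjusted p = 0.00167), a fit in which 1.34% of all tested probe sets passed and TNFSF4 was again the single ligand. Array set itself gave TNFSF4 a difference of 0.06 (set B minus set A, limma adjusted p = 0.764). With any of 5 single arrays left out the adjusted p no longer passed. It was 0.0812, 0.192 and 0.0661 without LPS 1, 2 and 3, and 0.0856 and 0.143 without control 2 and 3, against 0.0407 without control 1, all by limma. The difference over these 6 fits ran from 0.35 to 0.41. TNFSF4 has no second probe set here, and the suffix of this one marks possible cross-hybridisation with other transcripts.

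**Figure D2:**
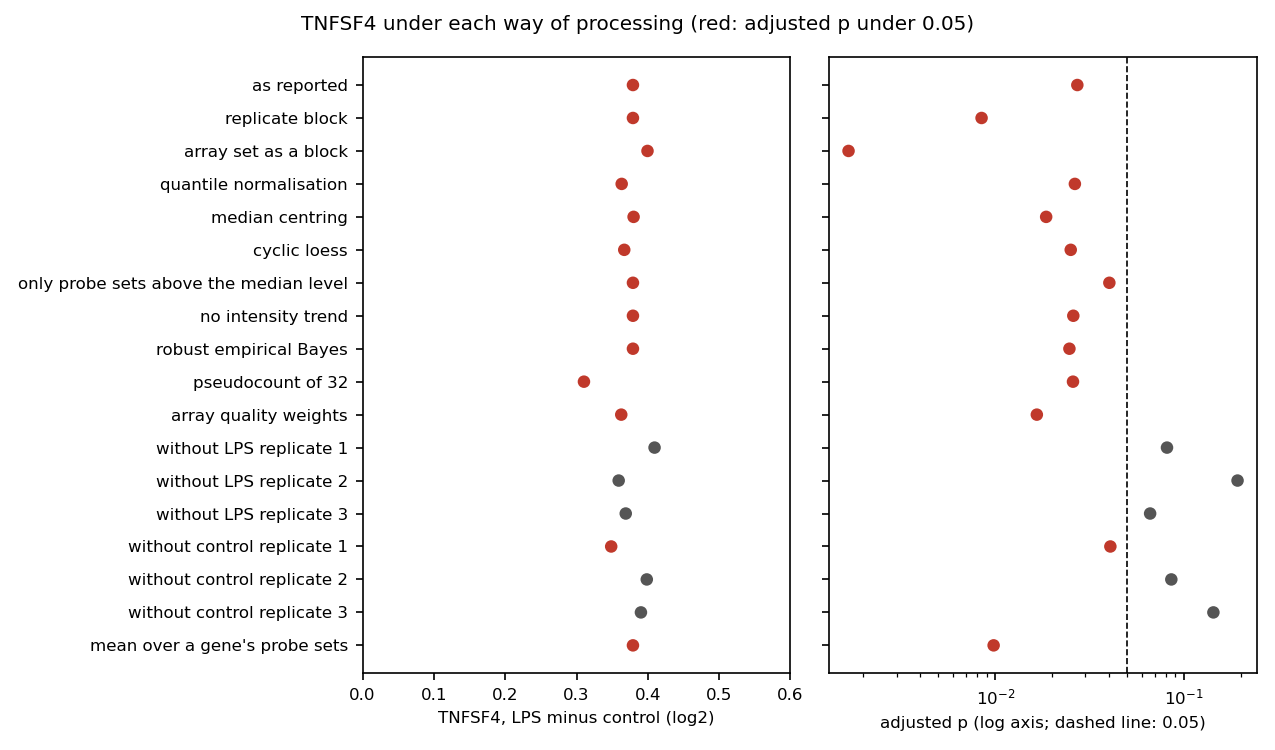
Difference of TNFSF4 between LPS and control cells (left, log2) and its adjusted p (right, log axis, dashed line at 0.05) as reported and under each alternative processing. The difference lies between 0.31 and 0.41 in every row, while the adjusted p crosses 0.05 in 5 of the 6 rows that leave out an array.

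Promoter sequence is given for TNFSF4, the ligand that rose, for TNF, the classical LPS product, and for LTB, whose promoter holds a match to the NF-kB consensus. Each is the 250 bases before the annotated start of the gene, from RefSeq (GRCh38.p14), 5′ to 3′ on the gene's own strand, with motif matches in capitals.
TNFSF4, chr1:173205533-173205782, minus strand: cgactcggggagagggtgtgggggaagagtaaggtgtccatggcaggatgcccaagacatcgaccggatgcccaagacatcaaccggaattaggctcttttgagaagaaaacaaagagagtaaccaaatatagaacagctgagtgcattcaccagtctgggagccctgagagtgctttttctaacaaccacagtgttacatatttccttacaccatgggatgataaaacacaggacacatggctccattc
TNF, chr6:31575315-31575564, plus strand: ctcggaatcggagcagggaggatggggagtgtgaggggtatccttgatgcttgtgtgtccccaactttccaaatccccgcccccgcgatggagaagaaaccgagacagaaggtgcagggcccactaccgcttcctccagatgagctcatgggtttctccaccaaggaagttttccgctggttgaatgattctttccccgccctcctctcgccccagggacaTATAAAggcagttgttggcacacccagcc
LTB, chr6:31582425-31582674, minus strand: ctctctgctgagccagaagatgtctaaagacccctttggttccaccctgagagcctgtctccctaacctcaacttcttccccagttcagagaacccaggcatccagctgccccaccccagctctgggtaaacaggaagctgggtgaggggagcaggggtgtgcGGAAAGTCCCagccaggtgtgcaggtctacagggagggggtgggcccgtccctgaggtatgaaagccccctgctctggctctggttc
Both strands were searched for the NF-kB consensus GGGRNNYYCC, the AP-1 site TGANTCA, the cyclic AMP element core TGACG and the TATA box TATAAA. In these patterns R is A or G, Y is C or T and N is any base, and no mismatch was allowed. The TNFSF4 window held none of them. The TNF window held a TATA box from base 29 to base 24 before the start, and the LTB window an NF-kB match from base 87 to base 78, on the opposite strand. No 2 motifs overlapped in these windows. Over the 8 ligands with a sequence in the table, the NF-kB consensus was found in 3 (LTA, LTB and TNFSF13) and the TATA box in 4 (TNF, LTA, TNFSF9 and TNFSF10), against 9.96% and 10.7% of 35116 promoters. The AP-1 site and the cyclic AMP core, in 6.57% and 21.2% of promoters, were found in 0 of the 8. A match is a description of the letters and does not mark a bound site. A window without a match may still hold sites that differ from these patterns. CD70 and TNFSF8 were not matched.

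CD70, the ligand of CD27, is another costimulator carried by activated lymphocytes. CD70 read 8.921, 8.851 and 8.998 on the LPS arrays, against 9.008, 8.983 and 9.021 on the control arrays. The groups overlapped, and the difference was -0.08 (95% interval -0.25 to 0.09, limma adjusted p = 0.872). The interval covers changes in either direction, the larger of them a decrease.

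TNFSF9, known as 4-1BBL, costimulates T cells through TNFRSF9. TNFSF9 read 7.92, 7.95 and 7.72 on the LPS arrays, against 7.96, 7.96 and 8.11 on the control arrays. The groups did not overlap, but by a gap of 0.0038 only, and the difference was -0.15 (95% interval -0.32 to 0.03, limma adjusted p = 0.719). The set A arrays gave -0.03 for TNFSF9 and the set B arrays -0.31. CD70 and TNFSF9 lie next to each other on chromosome 19 and are followed there by TNFSF14, a ligand outside the members, which gave -0.09 (limma adjusted p = 0.751). The neighbours of TNFSF4 on chromosome 1, TNFSF18 and FASLG, gave 0.05 and -0.04 with limma adjusted p of 0.903 and 0.913.

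TNFSF8, the CD30 ligand, was read by 3 probe sets whose differences did not share a sign. The brightest, 235735_at, read 9.19, 9.01 and 9.35 on the LPS arrays, against 9.25, 9.44 and 9.40 on the control arrays, a difference of -0.18 (95% interval -0.39 to 0.04, limma adjusted p = 0.713). Probe set 207216_at read 8.68, 8.58 and 8.63 on the LPS arrays, against 8.68, 8.83 and 8.81 on the control arrays, a difference of -0.15 (95% interval -0.32 to 0.03, limma adjusted p = 0.702). The dimmer 241819_at had the opposite sign, at 7.35, 7.02 and 7.18 on the LPS arrays and 7.06, 7.12 and 6.93 on the control arrays. Its difference was 0.15 (95% interval -0.03 to 0.33, limma adjusted p = 0.720). None passed, and the groups overlapped in 235735_at and 241819_at and were apart by 0.0012 in 207216_at.

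**Figure D3:**
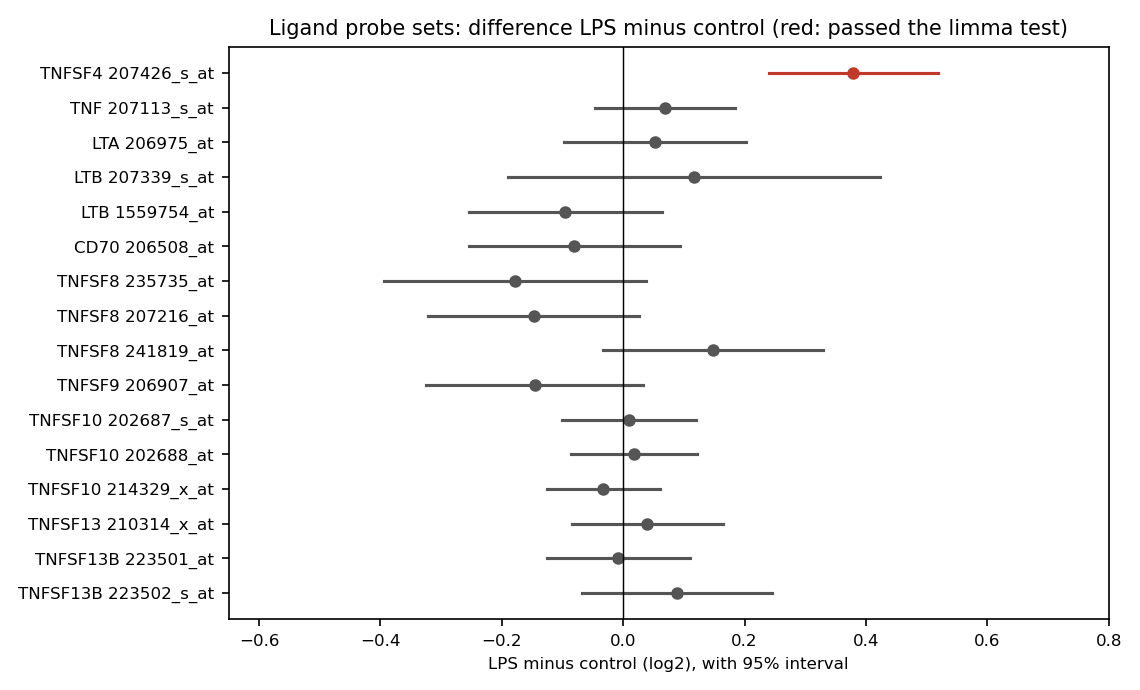
Difference between LPS and control cells (x axis, log2) for each ligand probe set, with its 95% interval from the limma fit. The interval of TNFSF4 (red) runs from 0.24 to 0.52 and lies clear of 0, and the intervals of the other 15 probe sets cross 0.

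The second group is TNF with the lymphotoxins, whose genes lie side by side on chromosome 6 in the order LTA, TNF, LTB. TNF is the inflammatory cytokine of the family. TNF read 6.49, 6.51 and 6.46 on the LPS arrays, against 6.45, 6.40 and 6.39 on the control arrays. The LPS values were all above the control values, with a gap of 0.0049, and the difference was 0.07 (95% interval -0.05 to 0.18, limma adjusted p = 0.815). The TNF probe set was brighter than 50.2% of tested probe sets, close to the array medians of 6.42 to 6.47, where a fold change may be compressed.

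LTA, or lymphotoxin alpha, is secreted as a trimer or joins LTB at the cell surface. LTA read 6.81, 6.73 and 6.62 on the LPS arrays, against 6.55, 6.71 and 6.73 on the control arrays. The groups overlapped, and the difference was 0.05 (95% interval -0.10 to 0.20, limma adjusted p = 0.913). The set A arrays gave 0.22 for LTA and the set B arrays -0.11, opposite in sign.

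LTB, the membrane anchor of the lymphotoxin heterotrimer that signals through LTBR in lymphoid organs, varied most between arrays of the same group. By its brighter probe set, 207339_s_at, LTB read 9.32, 9.66 and 9.88 on the LPS arrays, against 9.23, 9.72 and 9.57 on the control arrays. The lowest value of each group was that of replicate 1, an array of set A in both, and the groups overlapped. The mean was 9.62 ± 0.28 in LPS and 9.51 ± 0.25 in control cells (SD, n = 3 each), a difference of 0.12 (95% interval -0.19 to 0.42, limma adjusted p = 0.905). Within set A the LTB difference was 0.27, and within set B 0.24. With array set as a block it was 0.25 (limma adjusted p = 0.227). The set B arrays exceeded the set A arrays by 0.40 in LTB, with LPS in the fit (limma adjusted p = 0.00588), the single ligand probe set to pass for array set, where 4.54% of all tested probe sets did. The dimmer LTB probe set, 1559754_at, gave -0.10 (95% interval -0.25 to 0.06, limma adjusted p = 0.815).

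TNFSF10, known as TRAIL, induces apoptosis through the receptors TNFRSF10A and TNFRSF10B. Its 3 probe sets were among the dimmest here, brighter than 3.69% to 9.42% of tested probe sets. The brightest, 202687_s_at, read 5.93, 5.86 and 5.93 on the LPS arrays, against 5.84, 5.88 and 5.98 on the control arrays. The TNFSF10 differences were 0.01, 0.02 and -0.03, with limma adjusted p from 0.913 to 0.984. The values lie close to the floor of the table, near 5.5, where a change may be compressed.

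The last group holds APRIL and BAFF, which support the survival of B cells and plasma cells. TNFSF13, which encodes APRIL, had 1 probe set with its symbol alone, 210314_x_at. TNFSF13 read 6.79, 6.69 and 6.72 on the LPS arrays, against 6.70, 6.72 and 6.67 on the control arrays, a difference of 0.04 (95% interval -0.09 to 0.16, limma adjusted p = 0.923). The groups overlapped.

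TNFSF13B, which encodes BAFF, had 2 probe sets. By 223501_at TNFSF13B read 6.05, 6.17 and 6.17 on the LPS arrays, against 6.10, 6.20 and 6.11 on the control arrays, a difference of -0.01 (limma adjusted p = 0.988). By 223502_s_at it read 6.06, 6.05 and 6.24 on the LPS arrays, against 6.12, 6.11 and 5.86 on the control arrays, a difference of 0.09 (limma adjusted p = 0.830). The groups overlapped in both, and both were dimmer than the array medians.

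None of the receptors of these ligands passed the test, where 36 of all 19775 genes passed as higher and 41 as lower. Of 16 receptor genes listed all 16 were measured. By their brightest probe sets 0 had an unadjusted limma p under 0.05, against 1890 of the 19775 genes. The median difference of the receptors was -0.0188, with 0.00161 over all 19775 genes. TNFRSF4, the OX40 receptor of TNFSF4, averaged 7.05 ± 0.084 in LPS and 7.08 ± 0.081 in control cells (SD, n = 3 each), a difference of -0.03 (limma adjusted p = 0.954), and its other probe set gave 0.07. CD27, the CD70 receptor, gave -0.11. TNFRSF8, or CD30, which binds TNFSF8, gave 0.08, and TNFRSF9, which binds TNFSF9, gave -0.01.

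For TNF, TNFRSF1A gave -0.03 and TNFRSF1B 0.04. LTBR, the receptor of the LTA and LTB heterotrimer, gave 0.03, and TNFRSF14, which binds LTA, gave -0.0028. Of the TRAIL receptors, TNFRSF10A gave 0.19 (95% interval -0.02 to 0.40, limma adjusted p = 0.659), the largest receptor difference by brightest probe sets, and TNFRSF10B -0.09. The dimmer TNFRSF10A probe sets gave 0.08 and -0.01. The decoy receptors TNFRSF10C, TNFRSF10D and TNFRSF11B gave -0.04, -0.11 and -0.08. Of the BAFF and APRIL receptors, TNFRSF17, the plasma cell receptor BCMA, averaged 11.18 ± 0.20 in LPS and 11.03 ± 0.11 in control cells (SD, n = 3 each), a difference of 0.15 (limma adjusted p = 0.806). TNFRSF13B, or TACI, gave 0.15 and TNFRSF13C, the BAFF receptor, -0.06.

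**Figure D4:**
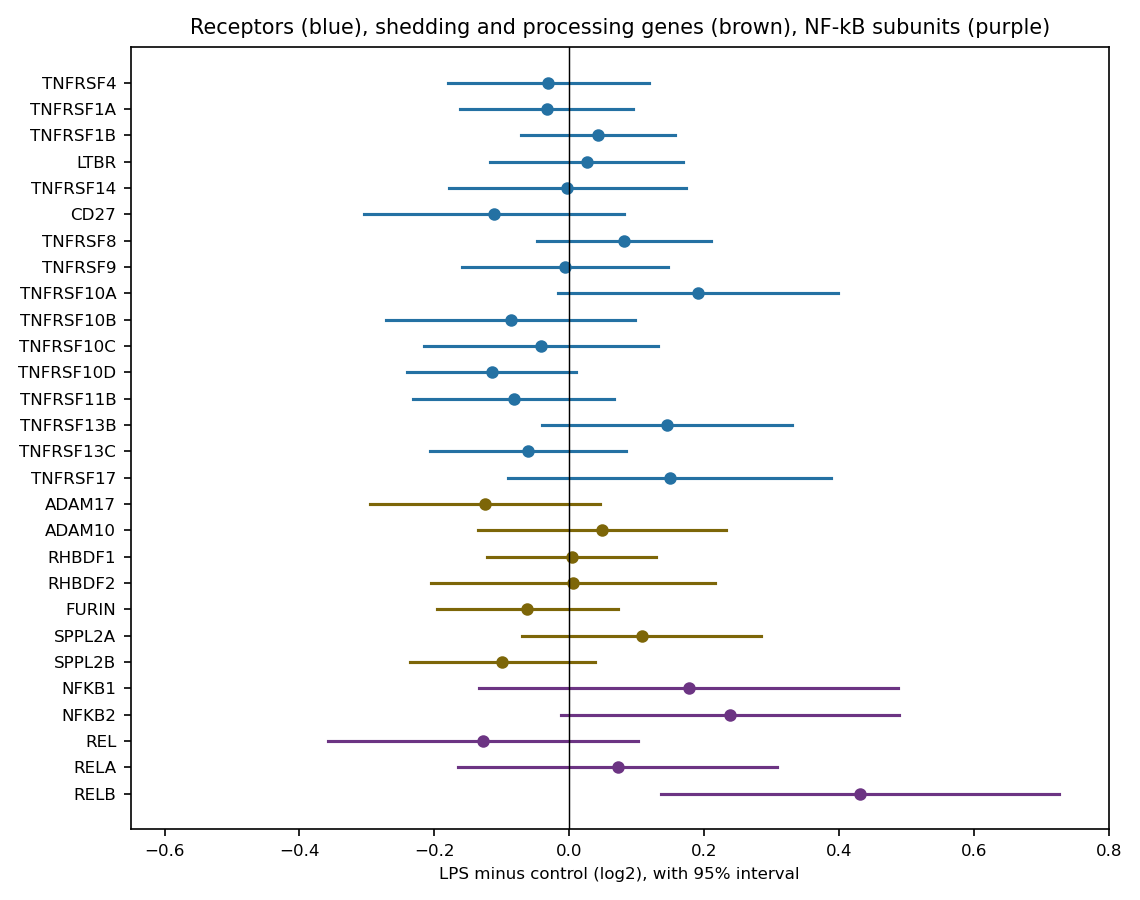
Difference between LPS and control cells (x axis, log2) with its 95% interval for receptors of the ligands (blue), proteases and partners that release or process ligands (brown) and NF-kB subunits (purple), by each gene's brightest probe set. The 16 receptors lie between -0.11 and 0.19, and RELB, at 0.43, is the gene farthest from 0.

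Genes that act on the ligands or their transcripts also gave no call, where 0.264% of all tested probe sets passed. The other ligands of the superfamily had 6 of 8 listed genes measured, with 0 passing and differences from -0.09 to 0.12. The sheddases and processing factors, among them ADAM17, which releases TNF from the membrane, and FURIN, which cleaves APRIL and BAFF, had 7 of 7 measured, with 0 passing. ADAM17 gave -0.12 by its brightest probe set (limma adjusted p = 0.757), with the LPS values below the control values by a gap of 0.024. Its other probe sets gave -0.23 (limma adjusted p = 0.364, with a gap of 0.065) and -0.02, where the groups overlapped. FURIN gave -0.06 (limma adjusted p = 0.875). Of the RNA-binding regulators of TNF mRNA and their kinases 8 of 10 were measured, with 0 passing, and ZFP36, which destabilises TNF mRNA, gave 0.07 (limma adjusted p = 0.908).

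The 5 NF-kB subunits were all measured, 4 above 0 and 0 passing, with a median of 0.18, against 0.00161 over all genes. With array set as a block NFKB1 went from 0.18 to 0.03, NFKB2 from 0.24 to 0.12 and RELA from 0.07 to -0.03. In that fit REL went from -0.13 to -0.10 and RELB from 0.43 to 0.28. Set B minus set A was -0.43 in NFKB1, -0.36 in NFKB2 and -0.31 in RELA (limma adjusted p = 0.0018, 0.0044 and 0.016). For REL it was 0.07 (limma adjusted p = 0.798). The largest difference was that of RELB, a subunit of the non-canonical pathway, which read 9.21, 9.10 and 8.72 on the LPS arrays, against 8.88, 8.38 and 8.47 on the control arrays. These overlapped, and RELB gave 0.43 (limma adjusted p = 0.344), with 0.27 within set A and 0.30 within set B. Array set moved RELB by -0.44 (set B minus set A, limma adjusted p = 0.000604), and with array set as a block its LPS difference had a limma adjusted p of 0.0683. With the replicate number as a block it passed (limma adjusted p = 0.0375), though the numbers were not taken to pair the samples. Of 7 AP-1, NFAT and ETS factors 0 passed, where 0.264% of all tested probe sets did. NFATC2 gave 0.24 by its brightest probe set (limma adjusted p = 0.340), with the groups apart by 0.16. Its other probe sets gave 0.31, 0.12 and 0.10, and their groups overlapped. Array set moved those at 0.31 and 0.12 by -0.60 and -0.42 (set B minus set A, limma adjusted p = 3.1e-05 and 0.00023). NFATC1 gave -0.22 by its brightest probe set, with the groups apart by 0.10, and its other probe sets lay between -0.18 and 0.23.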

How the data were processed

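Affymetrix arrays, 1 per sample, measured RNA of 3 LPS-treated and 3 untreated samples of BL-2. The values used are the deposited table of 1 value for each of 54675 probe sets and array, on a scale read as log2 because they lie between 5.46 and 14.81. Background correction, summary and normalisation are not given in the sources used here, and no detection calls were available to this work. Per the labels' protocols, RNA was purified with a Qiagen kit and labelled by in vitro transcription.

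No test included the 62 control probe sets of the array. Symbols came from the platform annotation, updated by gene identifier to RefSeq (GRCh38.p14), and a gene stands for its single-symbol probe set with the highest mean, 19775 genes in all. The test was limma's (version 3.58.1, in R 4.3.3), from a model holding group alone and a trended empirical Bayes variance, two-sided, with Benjamini-Hochberg adjustment over 54613 probe sets and a threshold of 0.05. Precision is limited by the number of arrays, with a median SE of 0.063. For any single value the smallest exact two-sided permutation p with 3 against 3 is 0.1, so no such test was made. On simulated arrays for this comparison (54613 probe sets), 41% of 100 probe sets changed by 0.4 and 85% of 100 changed by 0.8 were called, with 4 unchanged ones. The changed probe sets were drawn only from those brighter than the median, and the noise was independent between arrays, without array sets. Of the 16 ligand probe sets 6 were dimmer than the median, so these shares do not cover them.

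The members, the lists of partners and markers and the array sets were chosen with earlier results of these data known. The text names every member probe set, the receptors of each ligand, and list genes that passed. All other genes were named after their values were seen. These were ADAM17, FURIN, ZFP36, the NF-kB subunits, NFATC1, NFATC2, MS4A1, CD79A, PAX5, BCL6, CD38, TCL1A and the chromosomal neighbours TNFSF14, TNFSF18 and FASLG. Array sets were parted at the widest gap, 0.104, of the mean over 45 added control probe sets.

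Sequences are from RefSeq promoter tables. Deviations from the group means correlated at 0.442, -0.040 and 0.232 between LPS and control samples of the same number, so the numbers were not taken to pair the samples.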

Additional observations from a re-analysis of the deposited data

How the results depend on the processing

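Of the ligands TNFSF4 alone passed under each of these alternatives that kept all arrays: the replicate block, array set as a block, 3 other normalisations, a filter on dim probe sets, 2 other variance priors, a pseudocount of 32 and array weights. The count of ligand probe sets called ranged from 0 to 1 when each array was left out in turn. The count of all probe sets called, 144 as reported, ranged from 10 to 374 in those fits, and rose to 498 with the replicate block, 734 with array set as a block, 292 with quantile normalisation, 307 with cyclic loess, 309 with array weights and 265 at an adjusted p under 0.1. Under the replicate block TNFSF4 gave 0.38 (limma adjusted p = 0.00846), and among the partner and marker genes RELB (0.0375) and CD79A (0.0364) passed beside MYBL1. LPS 1 and control 1 correlated best with each other, but LPS 2 correlated best with control 1, so not every sample correlated best with its own number.

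Signs turned in 4 ligands whose differences never passed. TNFSF13B gave 0.012 with array set as a block and 0.040 as the mean of its probe sets, TNFSF10 -0.0081 with array weights and -0.0018 as the mean of its probe sets, and LTB -0.095 without probe sets marked for cross-hybridisation. With each array left out, TNFSF10 ran from -0.021 to 0.050, TNFSF13B from -0.028 to 0.032, LTB from -0.023 to 0.27 and LTA from -0.0042 to 0.10. The causes were not tested. TNFSF4, TNF and TNFSF13 have no probe set outside those marked for cross-hybridisation, so that alternative gave them no value. Dim probe sets, those of TNFSF10 and TNFSF13B above all, limit what can be seen.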
